A study of Mus musculus with 2 samples.

Results

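The 1000 strongest accessible sites away from promoters were taken from DNase-seq of frontal cortex, as called in both libraries of 1 group. Overlapping peaks of the 2 libraries were merged into 100545 regions, of which 52787 held a peak in both. Of those, 28309 had their midpoint more than 2 kb from every transcription start site (TSS) of the GENCODE M21 annotation and are called distal here. Each distal region was ranked by the lower of its 2 peak strengths, and ranks 1 to 1000 are the members. The members were therefore selected on strength itself. Strengths, footprints and FDR values all come from the same DNase cuts, so they are given as a description and were not tested. With 2 libraries of 1 group no comparison of conditions was possible, and every share below is set beside that of all 28309 distal regions without a test.

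The tissue came from female B6CASTF1/J mice aged 14 days, which are F1 animals of a cross between C57BL/6J and CAST/EiJ. Both libraries shared this genotype, sex and age, and neither carried a labelled treatment. They came from separate biosamples with the same donor label, and a "3x" in the labels was not explained, so pooling of animals is possible and unknown. Replicate 1 held 93641 peaks and 234094 footprints, and replicate 2 held 66196 peaks and 154015 footprints. Promoter peaks within 500 bp of a TSS were present in both libraries for 16 of 16 pan-neuronal genes, 20 of 20 activity-regulated genes, 17 of 20 forebrain transcription factor genes, 13 of 19 excitatory neuron genes, 12 of 19 inhibitory neuron genes and 11 of 14 astrocyte genes. For the other glial and vascular lists they were present at 5 of 10 genes of oligodendrocyte precursors, 3 of 14 of oligodendrocytes, 3 of 15 of microglia and 3 of 16 of endothelial and mural cells. Lists from outside the brain had 4 of 16 blood and lymphoid genes, 2 of 16 muscle and heart genes and 1 of 15 liver and gut genes, so their shares overlapped those of the glial and vascular lists. All positions are given on the mouse build mm10.

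DNase I cuts DNA that is not wrapped around a nucleosome, so dense cutting marks enhancers, insulators and promoters. A protein bound inside such a site shields its own bases, and the shielded stretch is called a footprint. CTCF is a zinc finger protein that binds insulators and holds the bases of chromatin loops. Transfer RNA (tRNA) genes are short genes read by RNA polymerase III from promoter elements that lie inside the gene, and they are often kept open in many tissues. In sequence that occurs in several places in the genome, a short read cannot always be placed at its true origin.

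The sequences of 5 members show the kinds of site found among the highest ranks. Ranks 4 and 7, at chr6:49236421-49236620 and chr12:78350861-78351120, show how a stretch of DNA recurs on different chromosomes, and capitals mark the 167 bases of each that lie in a run of 31 bases (a 31-mer) shared by both. Rank 7 is given on the minus strand so that the shared bases read in the same direction. Rank 13, at chr4:151141621-151141840, was the strongest member with the CTCF consensus, and capitals mark its 13 matching bases. Rank 15, at chr7:35234741-35234980, was the strongest member that holds a tRNA gene. It is given on the minus strand, which is the strand of the gene, and capitals mark the 74 bases of that gene. Rank 17, at chr8:126666521-126666760, was unique sequence far from any gene, and capitals mark the 89 bases that lay in a footprint of both libraries.
Rank 4: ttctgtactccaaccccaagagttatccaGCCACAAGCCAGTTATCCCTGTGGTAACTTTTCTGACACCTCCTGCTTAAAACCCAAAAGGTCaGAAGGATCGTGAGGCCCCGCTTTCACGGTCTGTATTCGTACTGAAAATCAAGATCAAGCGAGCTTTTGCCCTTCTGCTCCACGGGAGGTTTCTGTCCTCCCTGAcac
Rank 7: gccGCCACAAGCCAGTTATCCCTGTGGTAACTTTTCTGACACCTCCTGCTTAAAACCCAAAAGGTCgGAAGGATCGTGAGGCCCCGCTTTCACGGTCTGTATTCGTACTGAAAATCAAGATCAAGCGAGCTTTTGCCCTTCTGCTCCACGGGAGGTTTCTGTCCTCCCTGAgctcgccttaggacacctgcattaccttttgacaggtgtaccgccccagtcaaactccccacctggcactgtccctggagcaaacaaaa
Rank 13: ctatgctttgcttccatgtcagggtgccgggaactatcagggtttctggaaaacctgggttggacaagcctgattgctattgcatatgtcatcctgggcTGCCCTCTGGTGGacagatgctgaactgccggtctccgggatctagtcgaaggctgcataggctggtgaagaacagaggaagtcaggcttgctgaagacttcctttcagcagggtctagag
Rank 15: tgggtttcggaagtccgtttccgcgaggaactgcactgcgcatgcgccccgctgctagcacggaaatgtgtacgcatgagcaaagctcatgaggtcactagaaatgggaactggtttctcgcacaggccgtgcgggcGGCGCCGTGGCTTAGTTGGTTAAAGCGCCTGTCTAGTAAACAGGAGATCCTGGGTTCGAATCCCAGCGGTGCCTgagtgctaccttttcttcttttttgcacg
Rank 17: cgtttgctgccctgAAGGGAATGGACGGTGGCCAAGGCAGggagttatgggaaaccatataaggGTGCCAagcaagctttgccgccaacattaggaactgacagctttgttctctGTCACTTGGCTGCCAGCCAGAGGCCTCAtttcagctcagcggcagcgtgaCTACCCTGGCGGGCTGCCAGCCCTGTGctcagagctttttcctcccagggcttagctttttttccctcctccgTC

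Member strengths ran from 2.52 to 34.1 in replicate 1, with a median of 3.68, and from 2.52 to 34.2 in replicate 2, with a median of 3.10. All 28309 distal regions had median strengths of 0.837 in replicate 1 and 0.703 in replicate 2. The strength is the authors' read-depth normalised signal, whose scale was not stated. In both libraries 100% of peak strengths were whole multiples of a smallest step, within 0.05 steps. The weakest member stood at 377 steps in replicate 1 and 294 steps in replicate 2. What 1 step stands for was not stated and total depth is unknown, so counting error cannot be read from these values. Rank 999 had 4.59 and 2.52 in replicates 1 and 2, and rank 1000 had 3.07 and 2.52. Just outside, the next 2 regions had 3.07 and 2.52, and 4.46 and 2.52. In all, 11 regions shared the lower strength of rank 1000, and 8 of them were taken, in order of position. The samples are bulk tissue, so a site open in more cells and a site cut more often per cell cannot be told apart.

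**Figure D1:**
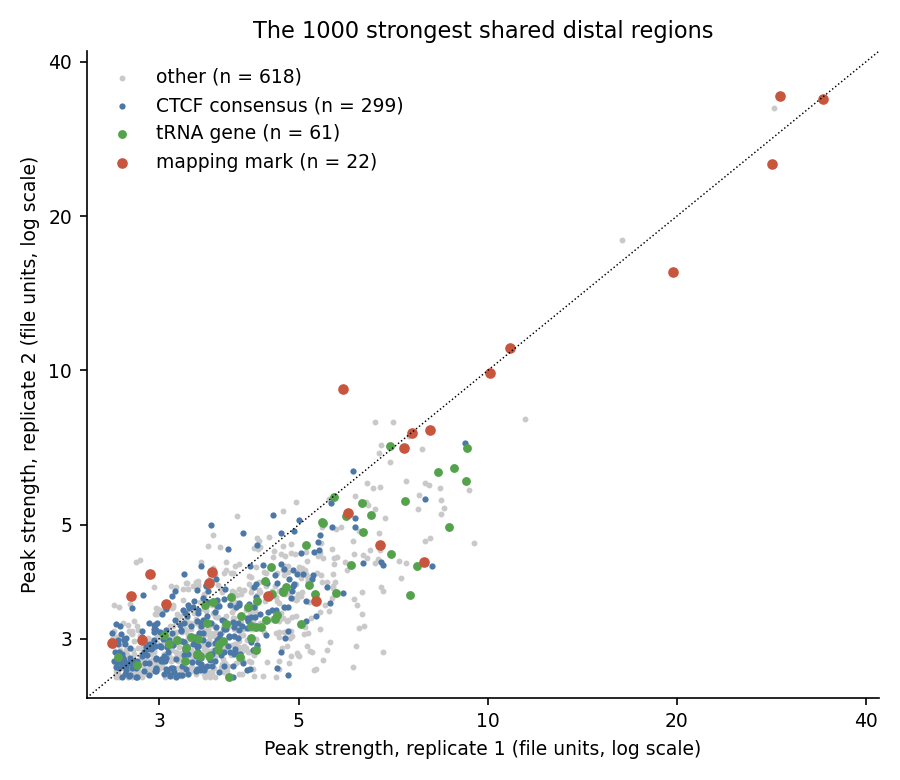
Peak strength of each of the 1000 members in replicate 1 (x axis) and replicate 2 (y axis), in file units on log scales, with the dotted line at equal strength. Points are coloured by mapping mark, tRNA gene, CTCF consensus or none of these, in that order of priority, and marked members reach from the top of the plot (34.1 and 33.8 for rank 1) to its lower end.

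The very top of the ranking was made up mostly of repeated sequence. A region received a mapping mark when over 50% of its 31-mers occurred more than once in the assembly, when it shared a 31-mer with the mitochondrial genome or an annotated ribosomal RNA gene, when it lay within 1 kb of an assembly gap, or when it lay outside chromosomes 1 to 19 and X. A mark was carried by 22 of 1000 members, or 2.2%, against 1.23% of all distal regions. All 22 were marked for multi-copy sequence, and 0 for any of the other reasons. The annotated ribosomal genes did not include a whole ribosomal repeat, so the 0 for that reason does not show that members hold no ribosomal sequence. The marks were unevenly spread by rank. They were carried by 7 of the 10 highest ranks, 5 of ranks 11 to 100 and 10 of the other 900 members. Of the 4000 regions that follow the members in rank, 0.925% carried one.

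Rank 1, at chr9:123461881-123462140, lay in a UTR of Lars2, which encodes the mitochondrial leucyl-tRNA synthetase. It had strengths of 34.1 in replicate 1 and 33.8 in replicate 2, and 59.6% of its 31-mers recurred, up to 8 times. Rank 2, at chr3:5860361-5860530, was intergenic, had strengths of 29.2 and 34.2, and consisted entirely of recurring 31-mers. Rank 4 had 28.3 in replicate 1 and 25.3 in replicate 2, and rank 7, in an intron of Gphn, which encodes the inhibitory synapse scaffold gephyrin, had 10.9 and 11.04. Ranks 1, 4 and 7 were parts of 1 family of sequence, although they lie on 3 chromosomes. Rank 4 shared an unbroken run of 59 bases with rank 1 and one of 104 bases with rank 7, as the capitals above show for the second pair. Rank 646, on chromosome 16, joined the same family through a run of 54 bases shared with rank 7. Rank 6, in an intron of the cytokine receptor gene Il31ra, had strengths of 19.7 and 15.6, with 75.4% recurring 31-mers. Rank 8, in an intron shared by Cmss1 and Filip1l, had 10.1 and 9.88, with 100%. These families were counted only from copies present in the assembly. Whether the family of ranks 1, 4, 7 and 646 resembles ribosomal RNA was not tested, since a full ribosomal repeat was not used here.

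Other multi-copy members formed groups along the X chromosome. Ranks 10, 16, 34 and 237 lay within 29.1 kb, between positions 169991141 and 170020240, at and beside the end of Mid1, which encodes a microtubule-associated ubiquitin ligase. Each of the 4 also occurred whole and unchanged on the Y chromosome of the assembly. Copies were counted over the whole assembly, which includes Y, whereas the animals are labelled female. Of the distal regions called in both libraries, 16 lay on Y, so the deposited calls included that chromosome. How the Y copies affected the placement of reads was not tested. The strengths of the 4 members spanned 3.64 to 8.08 in replicate 1 and 4.04 to 9.22 in replicate 2. Ranks 478 and 777 lay inside Firre, a long noncoding RNA gene of the X chromosome that contains local repeats. Rank 478 had strengths of 3.08 and 3.51 and rank 777 had 2.71 and 3.64, and 50.6% and 51.6% of their 31-mers recurred, just over the limit. Rank 991, in an intron of the protocadherin gene Pcdh9, was the one member with every base masked, and held a 31-mer that occurred 2041 times.

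The mark missed sequence that was repeated in part. At least 1 recurring 31-mer was found in 126 of 1000 members, against 8.6% of all distal regions. Linking members that share a 31-mer, directly or through another member, gave 23 groups, which held 70 members. Of these 70, 16 had neither a tRNA gene nor a mark. The same grouping was not made for all distal regions. Rank 9, in an intron of Jarid2, which encodes a Polycomb complex component, had strengths of 11.5 and 8.04 and 34% recurring 31-mers, and so was left unmarked. Rank 261, the next member along the same intron, was marked, with strengths of 5.34 and 3.56. Rank 12, which was the member farthest from a TSS at 169339 bp, shared a run of 39 bases with rank 22 on another chromosome. Its strengths were 7.49 in replicate 1 and 7.44 in replicate 2. Whether misplaced reads contributed to any of these strengths was not tested.

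Repeat-masked bases were otherwise scarce among members. Over 50% of bases were masked in 12 members, or 1.2%, against 2.48% of all distal regions. The share was 1.35% in the 4000 regions that follow in rank, so scarce masking was not particular to members. The median member had 0% masked bases, against 4.04% for all distal regions. No masked base was held by 560 members, or 56%, against 46.2% of all distal regions and 50.9% of those 4000. Among the 22 marked members the median was 12.5%, so most of the bases of a typical marked region were not masked as repeats.

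tRNA genes were overlapped by none of the 10 highest ranks but by 16 of ranks 11 to 100. GENCODE M21 as used here does not list nuclear tRNA genes, so distance from its start sites does not remove them, and the RefSeq annotation of the same assembly was used after this was seen. A tRNA gene was overlapped by 61 members, or 6.1%, against 0.53% of all distal regions. The share was 17.8% in ranks 11 to 100, 5% in the other 900 members, 1.02% in the 4000 regions that follow and 0.0451% in the 13309 lowest ranks. Of the 154 RefSeq tRNA genes that lay in a shared distal region, 63 lay in members, or 40.9%, and they covered 19 of 20 amino acid types. The tRNA genes for arginine, glutamate and leucine were the most numerous, with 6 each. Glutamine was the one type without a member, with 3 genes in shared distal regions.

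The strongest of these was rank 15, at a tRNA-Thr gene, with strengths of 9.26 in replicate 1 and 7.06 in replicate 2. Rank 18, at a tRNA-Tyr gene on chromosome 13, had 6.99 and 7.11. Rank 23, at a tRNA-Leu gene on chromosome 8, had 8.85 and 6.47, and rank 27, at a tRNA-His gene on chromosome 2, had 9.25 and 6.08. Strength was higher in replicate 1 for 59 of the 61, and also for 79.9% of all members and 72.2% of the other distal regions. The centre of the tRNA gene lay a median of 48 bp from the region midpoint and at most 190 bp, and 62 of the 63 genes lay wholly inside their region. The B box, the inner promoter element of tRNA genes, was matched in 58 members, or 5.8%, against 0.657% of all distal regions, and 57 of the 58 overlapped a tRNA gene. The letters of the B box are part of the tRNA itself, so this match is not separate evidence.

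Sites with tRNA genes were clustered and rich in CpG. A run of 8 members spanned 74.2 kb at chr11:69036881-69111080, around the mitotic kinase gene Aurkb, and 7 of them held a tRNA gene. Within it rank 70 had strengths of 6.34 and 4.85 and rank 981 had 3.88 and 2.53. A further 5 members spanned 62 kb on chromosome 13 around Trim27, 4 of them with a tRNA gene. All 4 members nearest to Trim7 and 3 of the 4 nearest to Cfap126 also held one. The observed to expected CpG ratio had a median of 0.859 in the 61 members with a tRNA gene, 0.374 in all members and 0.268 in all distal regions. Near-identical tRNA genes share 31-mers, and a median of 20.5% of the 31-mers of these regions recurred, with a highest share of 37.7%, so that 0 of the 61 was marked.

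A RefSeq gene or transcript start lay within 2 kb of 130 members, or 13%, against 7.06% of all distal regions. Without starts of tRNA genes the count was 80, or 8%, against 6.44%, and 65 of these 80 regions held no tRNA gene. A CpG ratio over 0.6 with a GC content over 50% was found in 178 members, or 17.8%, against 5.17%. Rank 942, at chr17:4908001-4908560, is an example. It lay 15294 bp from the nearest GENCODE start, but 41 bp from the RefSeq start of Gm34507. It had a GC content of 73.9%, 73 CpG dinucleotides, and strengths of 2.88 and 2.56. Rank 719, in an intron of the ion channel gene Trpm3, was 144623 bp from a GENCODE start and 825 bp from a RefSeq start of Trpm3 itself. By RefSeq, therefore, 13% of the members were not distal.

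**Figure D2:**
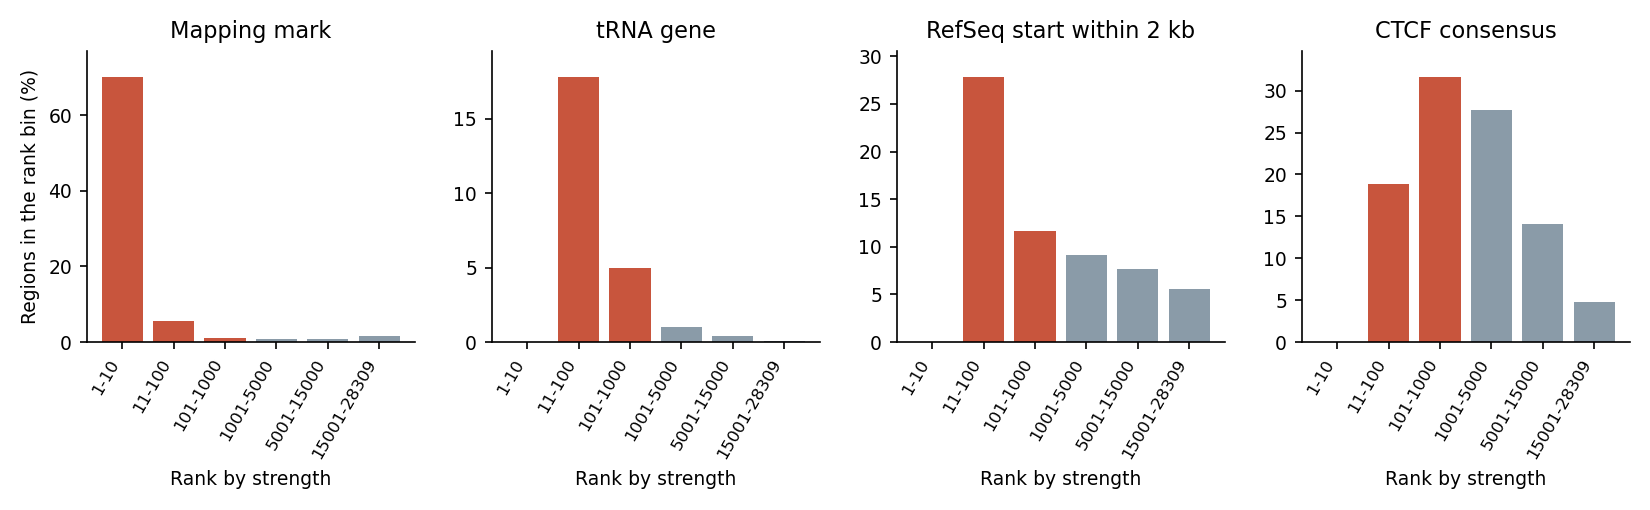
Share of regions (%, y axis) with a mapping mark, a tRNA gene, a RefSeq start within 2 kb and the CTCF consensus, by rank of strength (x axis), with members in red and lower ranks in grey. Mapping marks fall from 70% in ranks 1 to 10 to 1.11% in the last 900 members, while the CTCF share is 0% in ranks 1 to 10 and highest, at 31.6%, in the last 900 members.

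Among unmarked members without a tRNA gene, the strongest lay in UTRs, introns and intergenic sequence. Rank 3, at chr15:99735661-99736060, lay in a UTR of Cers5, which encodes a ceramide synthase, with strengths of 28.5 in replicate 1 and 32.4 in replicate 2. Rank 5, at chr13:58177601-58177840, lay in a UTR of Ubqln1, which encodes a proteasome shuttle, with 16.3 and 17.96. In both, 0% of 31-mers recurred in the assembly, but only exact copies were counted, so copies with differing bases could be missed. The next unmarked member was rank 9, given above with 11.5 and 8.04. Rank 13, in an intron of the calmodulin-binding transcription factor gene Camta1 and 2147 bp from a start site of that gene, had 9.20 and 7.20. Rank 14 lay 4945 bp from the start of Txn2, which encodes the mitochondrial thioredoxin, with 7.07 and 7.94. Rank 17 lay 72655 bp from Irf2bp2, a transcriptional corepressor gene, with 7.86 and 7.04. Rank 19 lay 37868 bp from Nanog, a pluripotency factor gene, with 6.76 and 7.16.

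Of the 24 consensus sequences searched, that of CTCF was found in the most members. It was matched on either strand within 200 bases centred on the midpoint in 301 members, or 30.1%, against 12.2% of all distal regions. Ranks 1 to 10 held 0 matches and ranks 11 to 100 held 17, or 18.9%. The share was 31.6% in the other 900 members, 27.7% in the 4000 regions that follow, 14.1% in the next 10000 and 4.76% in the 13309 lowest ranks. Of the 22 marked members 1 had a match, and of the unmarked members 30.7% did. The share was 36.4% for the 371 members in introns and 26% for the 581 in intergenic sequence, against 11.6% and 12.6% for all distal regions of those classes. By distance from a TSS it was 27.3% of members at 2 to 5 kb, 31.9% at 5 to 20 kb and 30.5% at 20 to 100 kb, and 1 of the 10 members farther away had a match.

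Members with the consensus were weaker within the set and had fewer CpG than the other members. Their median strengths were 3.46 in replicate 1 and 3.00 in replicate 2, and those of members without it were 3.80 and 3.15. The median CpG ratio was 0.284 with the consensus and 0.438 without it, against 0.268 in all distal regions. The 301 members held 309 matches, and 307 of these, or 99.4%, overlapped a footprint of each library by at least 1 base. In all distal regions 90.3% of 3479 matches did. A match did not need to lie wholly inside a footprint to be counted. The footprints over the matches had a median width of 39 bp in replicate 1 and 42 bp in replicate 2, against 16 bp for all footprints of members in either library. In all distal regions the widths over matches were 30 and 28 bp, against 10 bp for all footprints in either library. A wide footprint overlaps a match more readily than a narrow one, so these widths are not a like comparison. At rank 13 the footprint over the match was 49 bp wide in each library. Since footprint calling depends on how many cuts a site has, the strength that selected the members also affects these shares.

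Other consensus sequences were each found in fewer members. The rule for naming took the 5 highest and the 5 lowest ratios of members to all distal regions among the consensus sequences found in at least 10 members. Beside CTCF, the higher ones were the sites of CREB, ETS, SP/KLF and ROR factors. The CREB site TGACGTCA, bound by cyclic AMP responsive factors, was found in 1.3% of members against 0.445%. The ETS site CCGGAAG was found in 3.1% against 1.48%, and the SP/KLF site GGGCGGG in 7.8% against 4.05%. The site TAGGTCA, bound by ROR nuclear receptors, was found in 1.8% against 1.13%. In the 4000 regions that follow the members in rank, the shares were 0.55% for CREB, 2.08% for ETS, 5.05% for SP/KLF and 0.95% for ROR. The 18 members with the ROR site are too few to read a difference from.

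The lower ones were the sites of AP-1, nuclear factor I, RFX, TEAD and GATA factors. The AP-1 site TGANTCA, bound by Fos and Jun proteins, was found in 4.9% of members against 8.41% of all distal regions. The nuclear factor I core TTGGCA was found in 10.5% against 17.7%, and the RFX core GTTGCCA in 3.7% against 5.07%. The TEAD site ACATTCC was found in 2.2% against 2.95%, and the GATA site AGATAAG in 1.2% against 1.58%. In the 4000 regions that follow in rank, AP-1 had 5.35%, nuclear factor I 12.8%, RFX 4.22%, TEAD 2.67% and GATA 1.25%. All of these were below the shares in all distal regions, so lower shares are not particular to members. The 22 members with the TEAD site and the 12 with the GATA site are too few to read a difference from. The MEF2 consensus, bound by activity-dependent neuronal factors, was matched in 1 member, or 0.1%, against 0.601%. NRF1, a factor of housekeeping promoters, had the highest ratio of all, with matches in 6 members, or 0.6%, against 0.148%. Both were found in too few members for the naming rule and were picked after their values were seen. A match is only a run of letters, and says nothing of whether the factor was bound.

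**Figure D3:**
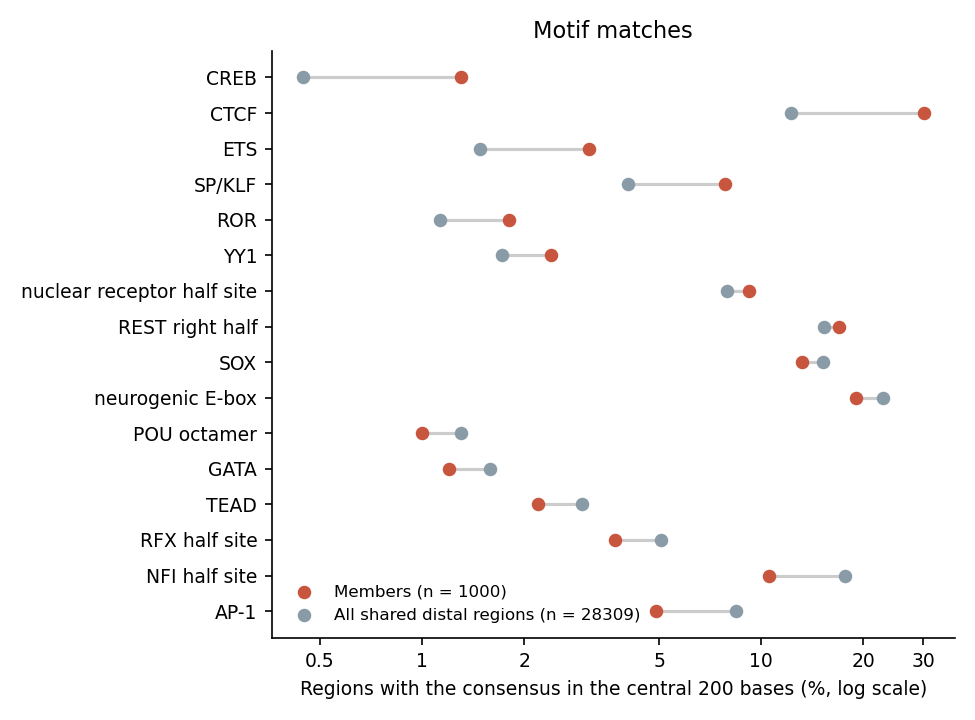
Share of regions (%, x axis, log scale) whose central 200 bases match each consensus sequence, for members (red) and all shared distal regions (grey), for the sequences found in at least 10 members, ordered by ratio. CTCF stands apart at 30.1% against 12.2%, and AP-1 (4.9% against 8.41%) is at the bottom.

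Every member held a deposited footprint in each library, and every one held at least 1 pair of footprints from both libraries that overlapped each other. Of all distal regions, 79.7% had a footprint in both libraries and 65.9% an overlapping pair. In the 4000 regions that follow the members in rank, these shares were 99.9% and 99.5%, so neither trait is particular to members. Members held 4076 footprints in replicate 1 and 3815 in replicate 2, with a median of 4 per member in each, against a median of 2 in all distal regions. Of the members' footprints, 79.8% in replicate 1 and 86% in replicate 2 overlapped one of the other library, against 46.1% and 60.9% in all distal regions. Footprints covered a median of 40.4% of a member's bases in replicate 1 and 37.6% in replicate 2, against 13.7% and 9.44%.

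The 3 members with the most footprints over both libraries were ranks 716, 237 and 621. Rank 716, at chrX:150477981-150478600, had 13 in replicate 1 and 14 in replicate 2. Rank 237, in an intron of Mid1, had 13 and 10, and rank 621, 23134 bp from the start of the kinase gene Rps6ka1, had 13 and 10. Ranks 716, 621 and 942 were also the widest members, at 620, 580 and 560 bases, against a median width of 200 bases for members and 220 bases for all distal regions. All members' bases lay in stretches listed with an FDR below 0.05 in both libraries, while the median over all distal regions was 100% in replicate 1 and 96.8% in replicate 2. All 1000 members also overlapped a peak of the authors' shorter lists in both libraries. So did 98.3% of the 4000 regions that follow in rank and 51.1% of all distal regions.

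**Figure D4:**
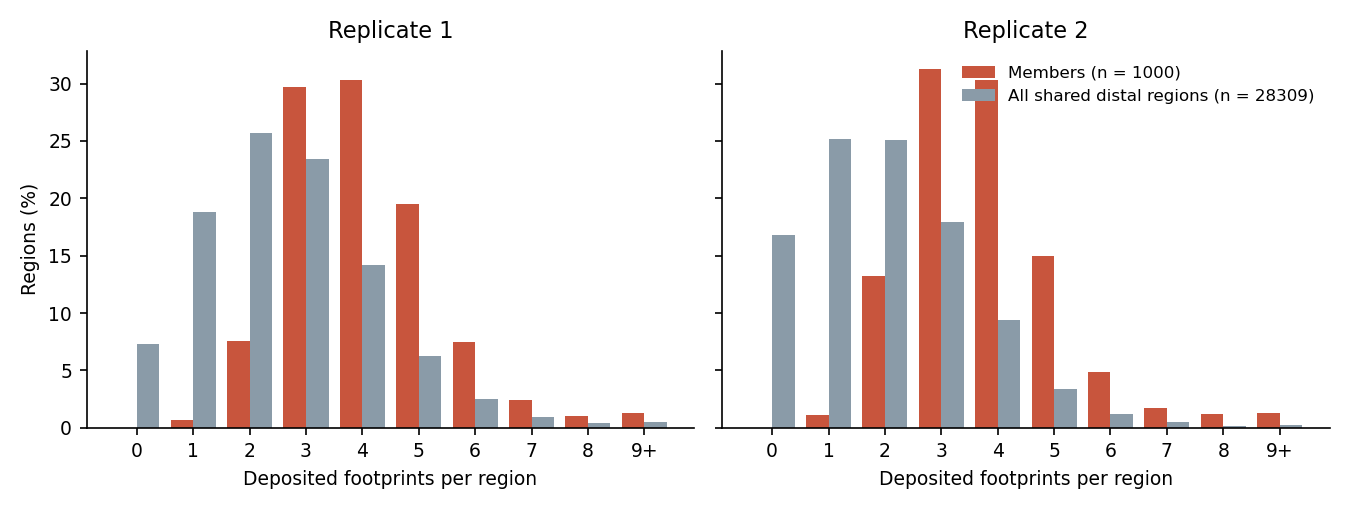
Number of deposited footprints per region (x axis) against the share of regions (%, y axis) in replicate 1 (left) and replicate 2 (right), for members (red) and all shared distal regions (grey). No member has 0 footprints, and the median is 4 in members and 2 in all regions.

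By annotation, 581 members had their midpoint in intergenic sequence, or 58.1%, against 49.7% of all distal regions, and 371 in introns, or 37.1%, against 45%. UTRs held 25 members, or 2.5%, against 2.08%, noncoding exons 14, or 1.4%, against 1.35%, and coding exons 9, or 0.9%, against 1.87%. Members lay nearer to start sites, at a median of 9.64 kb, against 14.2 kb. Of the members, 27.5% lay 2 to 5 kb away and 1% lay over 100 kb away, against 19.2% and 4.55% of all distal regions. Rank 251, on chromosome 1, was second farthest at 152066 bp, and ranks 663 and 281, on chromosomes 15 and 4, lay 138427 and 136906 bp away.

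**Figure D5:**
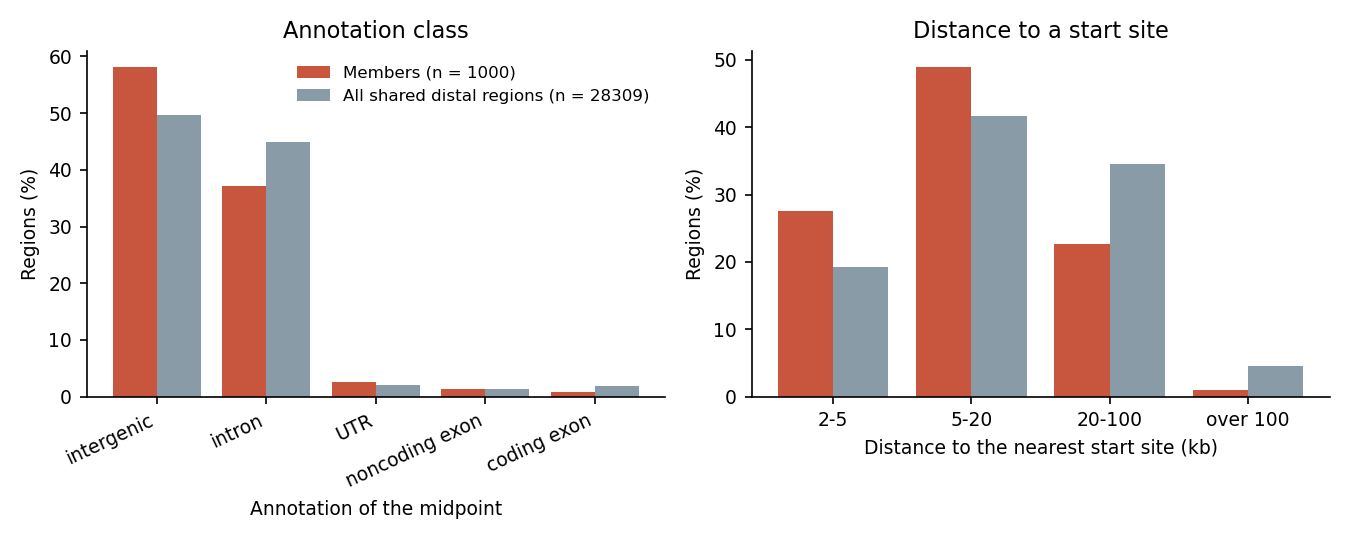
Share of regions (%, y axis) by annotation of the midpoint (left) and by distance in kb to the nearest GENCODE M21 start site (right), for members (red) and all shared distal regions (grey). Members are more often intergenic (58.1% against 49.7%) and within 5 kb of a start site (27.5% against 19.2%).

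Chromosome 11 held the most members, 94, or 7.92 per 10 Mb of known sequence, and X the fewest of the chromosomes with members, 15, or 0.917 per 10 Mb. Chromosome 11 also had the densest distal regions, 15.4 per Mb, and X had 3.55 per Mb. Of the distal regions of chromosome 11, 5.13% were members, and of those of X, 2.58%. A median of 388 kb separated a member from the nearest other one, and 187 members had another within 50 kb.

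Members were spread over many genes. Their nearest protein-coding starts belonged to 904 genes, of which 824 were nearest to 1 member, 70 to 2 members and 10 to more. The highest count was 5, for Klrb1c, which encodes a receptor of natural killer cells, out of 7 distal regions. A run of 7 members spanned 79.1 kb at chr6:128760081-128839160 around it and Klrb1b. Their strengths ran from 3.20 to 5.75 in replicate 1 and from 2.63 to 4.33 in replicate 2. None was marked, but 8.7% to 48.6% of their 31-mers recurred, and each shared a 31-mer with another of the run or with ranks 35 or 239, on the same chromosome. For instance, ranks 160 and 773 shared an unbroken run of 90 bases. The gene body with most members was that of Gm20388, with 7 of 110 distal regions, a model that spans 4430 kb over other genes of chromosome 8. Jarid2, Mid1 and the cell adhesion gene Lsamp held 3 members each, and Camta1 held 2, both with the CTCF consensus.

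A run of 5 members spanned 98.2 kb on chromosome 1, with Tex44 or Ptma, which encodes the nuclear protein prothymosin alpha, as the nearest protein-coding gene, and 3 of these held the CTCF consensus. Another 4 lay within 2.06 kb on chromosome 14 beside Rnase12, 3 of them with a tRNA gene and 1 with the CTCF consensus.

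Few members, like few of all distal regions, lay nearest to a gene that marks a brain cell type. The lists name 210 genes of 13 kinds. For pan-neuronal genes 3 members were nearest, or 0.3%, against 0.279% of all distal regions, and for activity-regulated genes 4, or 0.4%, against 0.191%. Forebrain transcription factor genes had 8, or 0.8%, against 0.442%. Oligodendrocyte genes had 2, or 0.2%, against 0.127%. Genes of oligodendrocyte precursors had 1, or 0.1%, against 0.0742%, and endothelial and mural genes 1, against 0.12%. No member was nearest to a listed gene of excitatory neurons, inhibitory neurons, astrocytes or microglia, to which 0.205%, 0.18%, 0.162% and 0.0989% of all distal regions were nearest. Liver and gut genes and muscle and heart genes had 1 member each, against 0.0777% and 0.0848%, and blood and lymphoid genes 0, against 0.0247%. Counts of 0 to 8 members are too small to read a difference from.

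The members near listed genes described here had ranks 84 to 929. The activity-regulated transcription factor gene Fos had 1 member of its 7 distal regions, 18509 bp from its start, with strengths of 4.996 in replicate 1 and 3.66 in replicate 2. Nr4a1, an orphan nuclear receptor gene of the same list, had 2 members of 2 distal regions, the stronger with 3.93 and 3.57, and Egr3 had 1 with 3.80 and 2.58. Among forebrain factors Emx2, which patterns the cortex, had 1 member 40151 bp from its start with 5.01 and 4.09. Nfix and Nfia, both genes of nuclear factor I proteins, had 1 each, with 5.72 and 3.87 at Nfix and 5.60 and 3.397 at Nfia. Sox4, a factor gene of immature neurons, had 1 with 4.81 and 3.09. Of the same list, Mef2c had 2 members, at ranks 531 and 709, and Id2 and Tcf4 had 1 each, at ranks 649 and 929. Dlg4, which encodes the postsynaptic scaffold PSD-95, had 1 member 2339 bp from a start, with 6.20 and 3.48. Celf4, a gene of an RNA-binding protein of neurons, had 2 members of 27 distal regions, the stronger in an intron with the CTCF consensus and with 2.59 and 2.62. The myelin genes Mog and Opalin had 1 each, with 4.19 and 3.16 at Mog and 3.52 and 2.80 at Opalin. Nkx2-2, a factor gene of oligodendrocyte precursors, had 1 in a coding exon with 3.16 and 2.63. Pdgfrb, the pericyte receptor gene, had 1 with the CTCF consensus, with 4.55 and 5.21. Outside the brain lists, Hnf4a, a liver factor gene, had 1 with 4.76 and 3.76, and Ryr1, a muscle calcium channel gene, had 1 with 3.65 and 4.79.

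The libraries ranked the members in much the same range but not on the same scale. Strength was higher in replicate 1 at 799 members, or 79.9%, against 72.2% of the other distal regions. The remaining 201 members were stronger in replicate 2. The median ratio of replicate 1 to replicate 2 was 1.15, against 1.16 over all distal regions. The highest ratio, 2.41, was at rank 669, 10111 bp from the amino acid transporter gene Slc38a2, with 6.81 and 2.82. Rank 830, in an intron of Itpkb, followed with 6.10 and 2.64, and rank 593, near Tmem120b, with 6.17 and 2.91. The lowest, 0.637, was at rank 34 beside Mid1, with 5.87 and 9.22. Rank 731, in a UTR of Rdh13, had 2.75 and 4.24, and rank 686, 46587 bp from the protocadherin gene Pcdhb1, had 2.80 and 4.27. The 3 highest ratios lay in GC-rich regions, of 61.8% to 70% GC, against a median of 52.5% for members. The 3 lowest lay in regions of 45% to 54.6%, and 1 of these, rank 34, consisted entirely of recurring 31-mers. Whether ratio and GC content were related over all members was not tested. With 1 library on each side the differences between libraries have no replicate check.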

How the data were processed

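Both libraries measure DNase cutting in frontal cortex. Per the deposited notes, each library has its own peak, footprint and FDR calls on mm10, with no pooling. Aligner, callers and thresholds were not given in the sources used here. Peak strength is a signal that the authors normalised for read depth. The deposited FDR files (p-value scale) list stretches under 0.05, and the footprint files hold 1 constant p-value, so only positions were used.

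Peaks of the longer list of each library were merged where they overlapped by 1 bp. Distance was taken from the midpoint to every transcript start of GENCODE M21, and class by the order coding exon, UTR, noncoding exon, intron, intergenic. tRNA genes and further starts came from the RefSeq annotation of GRCm38.p6, added after the data were seen. Masking was that of the reference sequence. Copies were counted as exact 31-mers on both strands over the primary assembly, and no list of excluded regions was used. Overlaps, copies and 24 consensus sequences were computed with Python 3.11.15, numpy 2.4.6 and numba 0.67.0, and tested on simulated data and against bedtools 2.31.1.

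Regions named in the text are the 10 highest ranks, the 10 highest without a mark, the 3 highest per mark, those with most footprints, greatest width, extreme ratios or greatest distance, and those beside rank 1000. Genes are those with most members and those of 13 lists nearest to an unmarked member, at most 4 a list by best rank. Other marked or tRNA members, runs of members, and Mef2c, Id2 and Tcf4 were picked after their values were seen. The members, lists and consensus sequences were chosen with earlier results of these data known. Positions are 1-based on mm10. Both libraries form 1 group, so no test was run.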

Additional observations from a re-analysis of the deposited data

How the results depend on the processing

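The 7 counts over the members (mapping mark, over 50% masked, footprint in both libraries, CTCF consensus, intron, intergenic, tRNA gene) were recomputed under other settings, giving 99 values, of which 93 stayed within 1.5 times the reported count. Marked members came to 36 per 1000 in the top 500, and to 0 once marked regions were replaced by the next ranks, which reached down to rank 1022. Masked members came to 47 with a limit of 25% and 1 with a limit of 75%. Members with a tRNA gene came to 39 per 1000 in the top 2000, and to 0 when RefSeq starts were also kept 2 kb away. That alternative was chosen after seeing the data, as were all those of the tRNA count. Both values of 0 were fixed in advance. The first setting removes every marked region, and the second every region at a RefSeq tRNA gene.

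Ranked by 1 library alone, the top 1000 overlapped 935 members without replicate 1 and 729 without replicate 2. Over those rankings the marked count was 21 to 24, the masked count 9 to 13, the CTCF count 266 to 307, the intron count 340 to 376, the intergenic count 576 to 600 and the tRNA count 61 to 62. A footprint of the library used was present in 999 to 1000. Over all settings the CTCF count ran from 256 to 323. Marks by 24-mers and 50-mers were 25 and 16. No paired analysis was possible because both libraries belong to 1 group. Total depth is unknown, and copies missing from the assembly could not be counted.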
